A study of Mus musculus with 18 samples.

Results

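The genes described here encode the subunits of oxidative phosphorylation, chosen by symbol alone in an RNA sequencing series of the mouse liver over 1 day. A row of the deposited table was a member when its symbol began with Nduf followed by a, b, c, s or v and a digit, was Sdha, Sdhb, Sdhc or Sdhd, began with Uqcr, with Cox and a digit from 4 to 8, or with Atp5, or named a protein-coding gene of the mitochondrial genome (mt-Nd, mt-Co, mt-Cytb, mt-Atp). The rule found 91 of 14451 rows, of which 78 were nuclear genes and 13 were the protein-coding genes of mitochondrial DNA (mtDNA). No expression value entered the choice. The nuclear members comprised 35 of complex I, 4 of complex II, 8 of complex III, 14 of complex IV and 17 of complex V.

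Oxidative phosphorylation moves electrons from NADH and succinate through complexes I to IV of the inner mitochondrial membrane to oxygen, and complex V, the ATP synthase, uses the resulting proton gradient to make ATP. Complexes I, III, IV and V are built from proteins of both genomes, whereas complex II is encoded in the nucleus alone. The mitochondrial genes are read as long polycistronic transcripts that are cut inside the organelle, where most of the messengers are polyadenylated. The nuclear subunits are separate genes spread over many chromosomes. In the liver the pathway supplies the ATP for gluconeogenesis, urea synthesis and protein secretion.

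Livers were collected from wild type male mice of 8 to 9 weeks under a cycle of 12 h light and 12 h dark, at zeitgeber times (ZT, hours after lights on) 1, 5, 9, 13, 17 and 21. Each of the 6 times had 3 livers from 3 mice, so that 18 mice gave 18 livers and no mouse was followed over time. No group carried a treatment, a transgene or a deletion, whole livers were used, and the mice sequenced were those with the best RNA in each group. The labels give polyadenylated RNA as the molecule, whereas the methods of the study speak of sequencing whole RNA.

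The deposited normalised value is an estimated number of reads, with a small offset, per 1000000 reads of an effective library size, so that levels of different genes are compared only after division by transcript length. The livers had from 10268168 to 23242842 estimated reads. The 5 hepatocyte markers Alb, Ttr, Apoa1, Cps1 and Serpina1c were all listed and summed to between 71498 and 103340.0 per liver. Rhythms were tested with limma by a 24 h cosine on log2(value + 1), with Benjamini-Hochberg adjustment over the 14449 genes above the floor in at least 1 liver, and a call means an adjusted p below 0.05. Amplitudes are differences from the daily mean on that log2 scale, and ± gives the SD over 3 livers for levels and the standard error for amplitudes and peaks. In whole tissue, fewer cells of a type and less RNA per cell cannot be told apart.

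In the values as deposited, most members of both genomes had their highest mean at a time in the dark phase, with small fitted amplitudes. Calls and peaks depended on scaling and on transcript length, as given below. The 24 h cosine was called for 39 of 78 nuclear members and 11 of 13 mitochondrially encoded members, where 35.3% of all genes were called. Of the nuclear members, 75 are subunits of the enzymes and 3 (Atp5s, Atp5sl and Cox7a2l) are proteins that share the symbol but are known as a coupling or assembly factor and a supercomplex factor. The called nuclear subunits, 36 of 75, had peaks between 14.7 h and 18.4 h and amplitudes from 0.12 to 0.26. The called mitochondrial genes peaked between 18.9 h and 20.9 h with amplitudes from 0.17 to 0.31. Over all genes, 13.4% were called with a peak between 13 h and 22 h. The 3 factors were called with peaks in the light phase, at 4.59 h, 7.61 h and 10.5 h.

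Marker sums of the hepatocytes and the bile duct did not overlap between ZT9 and ZT17, and those of the other cell types given here did. The hepatocyte sum was 71498 to 76089 at ZT9 and 91175 to 103340.0 at ZT17. The sum of the 3 Kupffer cell markers was 160 to 193 at ZT9 and 79.5 to 177 at ZT17, that of the 3 endothelial markers 85.5 to 111 and 54.1 to 99.3, and that of the 3 stellate cell markers 151 to 160 and 145 to 162. The 3 bile duct markers summed to 4.90 to 7.54 at ZT9 and 8.26 to 12.2 at ZT17, and the 3 red cell markers to 131 to 161 and 161 to 223. The part of these cells in the members' rhythm was not tested.

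**Figure D1:**
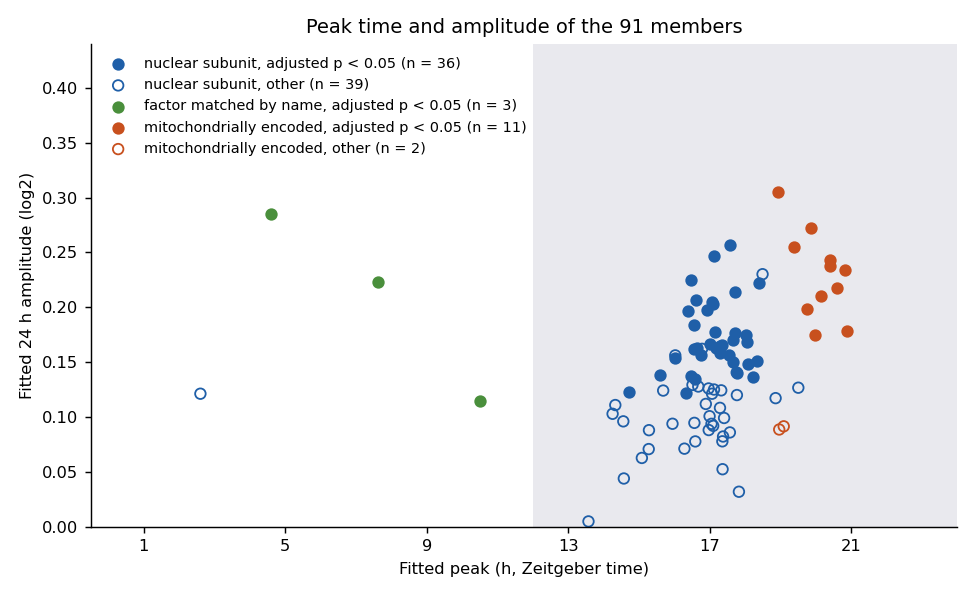
Fitted peak (horizontal axis, hours of zeitgeber time, dark phase shaded) against the 24 h amplitude (vertical axis, log2) for each of the 91 members, with filled points for adjusted p below 0.05 in limma. The 36 called nuclear subunits lie between 14.7 h and 18.4 h, the 11 called mitochondrial genes between 18.9 h and 20.9 h, and the 3 factors matched by name in the light phase.

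The highest mean of the 6 times fell on ZT13, ZT17 or ZT21 for 75 of 78 nuclear members, namely ZT13 for 33, ZT17 for 37 and ZT21 for 5. For the mitochondrial genes it was ZT17 for 12 of 13 and ZT21 for mt-Nd4l. At ZT17 every liver was above every ZT5 liver for 60 nuclear members and 11 mitochondrial genes, while 18.3% of all genes were ordered in this way. The opposite order was found for 2 nuclear members, Atp5s and Atp5sl, and 18.9% of all genes.

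Other tests called fewer members. The limma F test of any difference among the 6 times called 14 nuclear and 9 mitochondrial members beside 26.3% of all genes. JTK is a rank test that the study also used, and the version run here was written again from its description. It called 15 nuclear and 6 mitochondrial members beside 14% of all genes. For this dataset the study reports more genes found by its own JTK than this version called, and the cause was not tested. The JTK counts of members given here are therefore not those of the study's JTK. More members were called when equal cosines were counted once, as given below. With any 1 liver left out, the F test called 5 (without mouse 26) to 20 nuclear and 4 to 10 mitochondrial members, and JTK 5 (without mouse 7 or mouse 8) to 16 and 2 (without mouse 27) to 9. The 12 h term, which sees shapes with 2 peaks a day, was called for 0 of 91 members by limma beside 0.872% of all genes, and also for 0 with limma's trend and robust option and with voom weights. At an unadjusted p below 0.05 the 12 h term took in 4 members and 12.6% of all genes.

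The number of calls depended on how the samples were scaled, in both genomes, and in the nuclear members on transcript length. With each liver scaled to its plain total the 24 h cosine called 16 nuclear and 11 mitochondrial members (36.5% of all genes). After quantile normalization it called 32 nuclear members but only 4 mitochondrial genes, mt-Nd1, mt-Co2, mt-Nd3 and mt-Nd4l (35.6% of all genes). Without the second ZT17 liver (mouse 26) it called 25 nuclear members and again 11 mitochondrial genes. Across coding genes outside the rule with a mean value of at least 30, the cosine component at ZT17 fell with transcript length, from a median of 0.13 (log2) in the 63 genes of up to 600 bases to -0.08 in the 556 genes above 5000 bases. The nuclear members are short, with a median transcript of 751 bases. In the class of up to 600 bases the 25 members had a median component of 0.15 and 15 were called (49.2% of the other genes of that class). In the class of 601 to 800 bases the 16 members had 0.14 beside 0.13 for 103 other genes, and 9 were called beside 54.4%. In the longer classes the members' median was above that of the other genes. It was 0.15 beside 0.10 for 801 to 1000 bases (8 members, 5 called, beside 42.0% of the other genes). For 1001 to 1500 bases it was 0.10 beside 0.06 (11 members, 7 called, beside 46.8%). Above 1500 bases the members were called less often than the other genes, although their medians were higher. The medians were 0.08 beside 0.04 for 1501 to 2000 bases (8 members, 0 called, beside 48.1%). For 2001 to 3000 bases they were 0.07 beside 0.01 (6 members, 1 called, beside 51.6%). These differences were not tested. Of nuclear members longer than 1500 bases, 3 of 16 were called, among them the factors Atp5s and Atp5sl. Spearman's rho between length and the component was -0.56 over the 78 nuclear members, which is a correlation across genes of the same libraries and not of independent replicates.

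After a trend with transcript length had been removed within each liver, an alternative chosen after the data were seen, the 24 h cosine called 9 nuclear members (34.2% of all genes) and 9 mitochondrial genes. The 9 nuclear genes were Atp5g1, Ndufa12, Uqcrb, Ndufa5, Ndufv2 and Ndufb8 with peaks from 15.2 h to 20.3 h, and the 3 factors Cox7a2l, Atp5s and Atp5sl. With length and GC content removed together, 7 nuclear and 10 mitochondrial members were called (34.4% of all genes). The fitted peak lay outside 13 h to 22 h for 1 of 75 nuclear subunits in the values as deposited, for 11 with plain totals and for 25 with the length trend removed, and for 0, 0 and 5 of the mitochondrial genes. The part of transcript length in the nuclear rhythm was not tested.

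**Figure D2:**
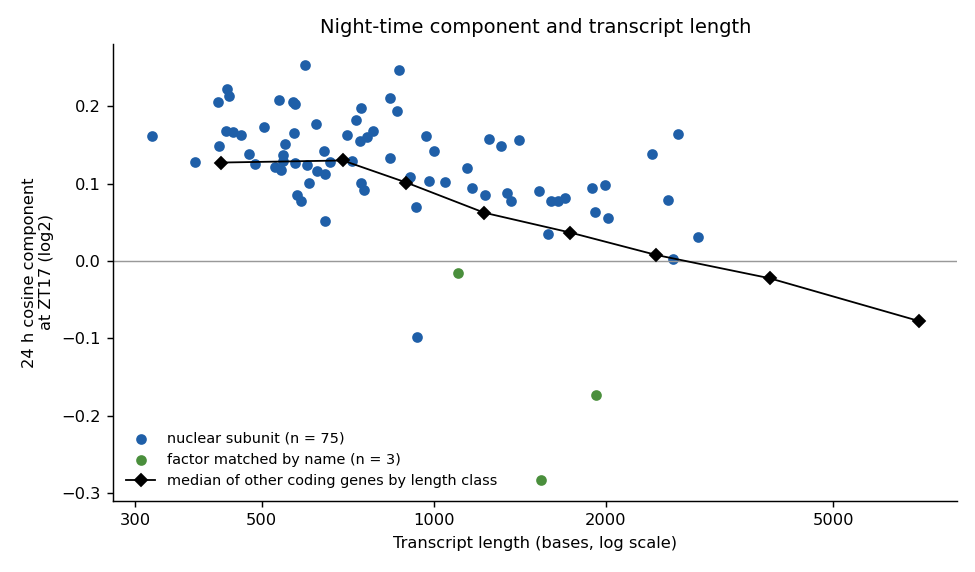
Transcript length (horizontal axis, bases, log scale) against the 24 h cosine component at ZT17 (vertical axis, log2) for 75 nuclear subunits and the 3 factors, with the median of other coding genes in 8 length classes as diamonds placed within each class. The medians fall from 0.13 in the shortest class to -0.08 in the longest, and most subunits of up to 800 bases lie around 0.1 to 0.2.

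In single livers the nuclear members moved together with other short transcripts. The median deviation of the 78 nuclear members from their own means ranged from -0.14 (mouse 8 at ZT5 and mouse 1 at ZT1) to 0.21 (mouse 26 at ZT17). That of 166 other coding genes with transcripts of up to 800 bases differed from it by at most 0.06 in any liver. The median of the mitochondrial genes had the same sign as that of the nuclear members in 12 of 18 livers, among them all of ZT5, ZT9 and ZT17, and lay within 0.06 of it in 6. The gap was largest in 2 livers. In mouse 19 at ZT13 the nuclear median was 0.19 above the daily means and the mitochondrial median -0.27, and in mouse 7 at ZT5 they were -0.08 and -0.33. In the other 16 livers the mitochondrial median lay between -0.23 and 0.28.

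**Figure D3:**
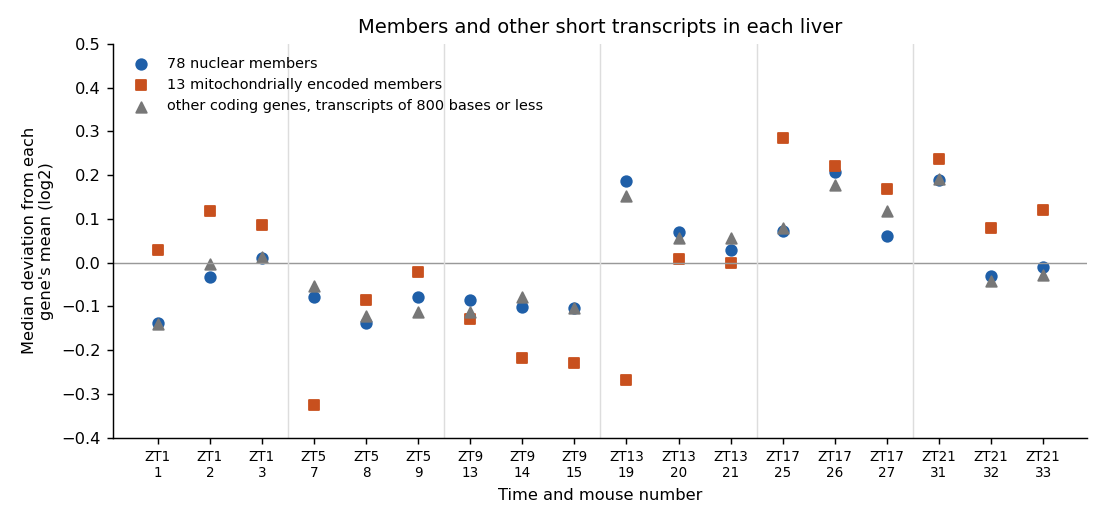
Median deviation from each gene's own mean (vertical axis, log2) in each of the 18 livers (horizontal axis, by time and mouse number) for the 78 nuclear members, the 13 mitochondrially encoded members and other short coding transcripts. Nuclear members and other short transcripts lie within 0.06 of each other in every liver, and the mitochondrial genes lie within 0.06 of the nuclear members in 6 livers and farthest from them in mouse 19 at ZT13.

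Among the mitochondrially encoded genes, all 13 had fitted peaks between 18.9 h and 20.9 h. They are encoded on chromosome M of GRCm38, 12 on 1 strand and mt-Nd6 on the other. The rhythm of mt-Nd3 (ENSMUSG00000064360, chrM:9459-9806), a small membrane subunit of complex I, had the smallest adjusted p of the members. Its values were 721, 764 and 817 at ZT1, 580, 610 and 708 at ZT5, and 684, 598 and 724 at ZT9. They were 650, 790 and 788 at ZT13, 984, 982 and 897 at ZT17, and 1004, 833 and 923 at ZT21. All 6 livers of ZT17 and ZT21 were above all 9 livers of ZT1, ZT5 and ZT9. The amplitude was 0.31 ± 0.0448 with a peak at 18.9 ± 0.560 h (limma adjusted p = 0.00021), which is a fitted ratio of 1.53 between peak and trough.

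The gene mt-Co2 (ENSMUSG00000064354, chrM:7013-7696) encodes the subunit of complex IV that receives electrons from cytochrome c. It measured 7580, 8300 and 7833 at ZT1, 5821, 6651 and 7137 at ZT5, 6551, 5898 and 5861 at ZT9, 6132, 7404 and 7309 at ZT13, 9217, 9067 and 8771 at ZT17, and 8964, 7701 and 8359 at ZT21. The 3 livers of ZT17 were above every liver of ZT1, ZT5, ZT9 and ZT13, and the amplitude was 0.27 ± 0.0427 with a peak at 19.9 ± 0.599 h (limma adjusted p = 0.00038). The gene mt-Cytb (ENSMUSG00000064370, chrM:14145-15288), the cytochrome b of complex III and the only mitochondrially encoded subunit of that complex, had means of 9332 ± 361 at ZT1, 8084 ± 903 at ZT5, 7676 ± 541 at ZT9, 8942 ± 828 at ZT13, 10824 ± 537 at ZT17 and 10512 ± 788 at ZT21 (n = 3 livers each). Its amplitude was 0.26 ± 0.0401 with a peak at 19.4 ± 0.600 h (limma adjusted p = 0.00038, and 0.134 after quantile normalization).

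The remaining complex I genes of mtDNA split into called and uncalled. The genes mt-Nd1, mt-Nd2, mt-Nd4 and mt-Nd4l, membrane subunits of complex I, were called with amplitudes of 0.20, 0.18, 0.24 and 0.22 and adjusted p of 0.0061, 0.019, 0.0025 and 0.01 in limma. The calls of mt-Nd2 and mt-Nd4l were lost with the length trend removed (adjusted p = 0.0602 and 0.0591), and those of mt-Nd2 and mt-Nd4 after quantile normalization (adjusted p = 0.0901 and 0.126). The genes mt-Nd5 and mt-Nd6 were not. The value of mt-Nd5 was 3795 ± 323 at ZT9 and 4409 ± 388 at ZT17, with an amplitude of 0.09 ± 0.0428 (limma adjusted p = 0.22), and the groups overlapped. The value of mt-Nd6 was 1214 ± 56.2 at ZT9 and 1432 ± 171 at ZT17, with an amplitude of 0.09 ± 0.0498 (limma adjusted p = 0.33), and again the groups overlapped. Both were uncalled also when any 1 liver was left out. Whether their amplitudes differ from those of the other mitochondrial genes was not tested. The reading frames of mt-Nd5 and mt-Nd6 lie on opposite strands and overlap by 14 bases (chrM:13552-13565). The sources used here do not state that the counting used strand, so reads of mt-Nd6 and reads of heavy strand precursors across it cannot be told apart.

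In complex IV, mt-Co1, the catalytic subunit, had the highest mean value of the members before division by transcript length, at 21921. It rose from 19341 ± 1288 at ZT9 to 24388 ± 633 at ZT17 (amplitude 0.17 ± 0.0383, limma adjusted p = 0.0057). The third core subunit, mt-Co3, measured 7381 ± 254 at ZT9 and 9916 ± 271 at ZT17 (amplitude 0.21 ± 0.0456, limma adjusted p = 0.0054). In complex V, mt-Atp6, the proton channel subunit, was 8775 ± 489 at ZT9 and 11731 ± 229 at ZT17 (amplitude 0.24 ± 0.053, limma adjusted p = 0.0064). The accessory subunit mt-Atp8 was 2165 ± 101 at ZT9 and 2884 ± 128 at ZT17 (amplitude 0.23 ± 0.0533, limma adjusted p = 0.0076). In both, mouse 19 at ZT13 held the lowest value of all 18 livers, 6940 and 1654. After quantile normalization the calls of mt-Co1, mt-Co3, mt-Atp6 and mt-Atp8 were lost (adjusted p = 0.632, 0.421, 0.136 and 0.193). The reading frames of these 2 genes share 43 bases (chrM:7927-7969, GRCm38, plus strand, from the GENCODE transcripts), shown because reads within them belong to both genes, with the start codon of mt-Atp6 and the stop codon of mt-Atp8 in capitals.
mt-Atp8 and mt-Atp6: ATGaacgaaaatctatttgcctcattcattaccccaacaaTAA

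Nuclear copies of mitochondrial DNA limit how these values were counted. Of the 13 genes, 7 (mt-Co1, mt-Co2, mt-Co3, mt-Atp6, mt-Nd3, mt-Nd4 and mt-Nd4l) share over 50% of their 50-base windows with annotated nuclear pseudogenes, and the share is 100% for mt-Co2. The method that made the values divides such reads between the copies. Exons of 32 of the 91 members overlap those of another gene on either strand, 13 of them over more than 10% of their bases. The genes mt-Cytb, mt-Nd1 and mt-Atp8 share 0% of their 50-base windows with other genes and were called as well. The gene mt-Nd6 also shares 0% of these windows and was not called.

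As a share of all estimated reads, the 13 mitochondrial members took 8.82%, 9.26% and 9.08% at ZT1 and 7.45%, 8.45% and 8.96% at ZT5. At ZT9 the share was 8.21%, 7.54% and 7.62%, and at ZT13 it was 7.05%, 8.33% and 8.78%. It was 9.94%, 9.47% and 9.52% at ZT17 and 9.59%, 9.25% and 9.74% at ZT21. The 3 livers of ZT17 were above all livers of ZT1, ZT5, ZT9 and ZT13, and those of ZT9 were below all of ZT1, ZT17 and ZT21. The mean rose by 1.85 percentage points from 7.79% ± 0.361 at ZT9 to 9.64% ± 0.255 at ZT17. The 78 nuclear members took 0.964% ± 0.0357 at ZT1, 1.00% ± 0.0269 at ZT5, 0.984% ± 0.0114 at ZT9, 1.07% ± 0.0797 at ZT13, 1.05% ± 0.0239 at ZT17 and 1.03% ± 0.0170 at ZT21. The ratio of mitochondrial to nuclear reads was 7.61 ± 1.33 at ZT13 and 9.40 ± 0.234 at ZT1, and it was lowest in mouse 19 at ZT13, at 6.08. Shares of a library are not independent of one another, and sums over members were not tested.

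**Figure D4:**
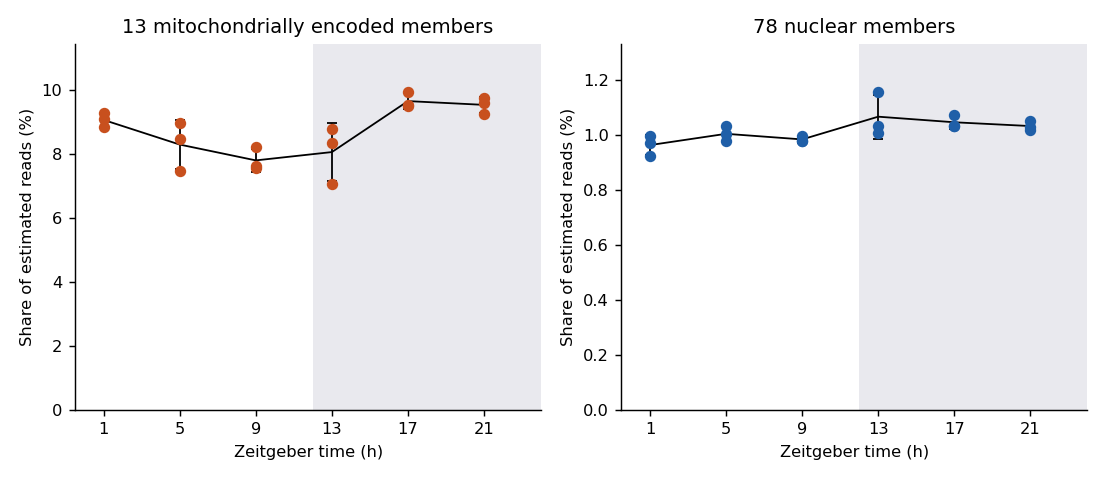
Share of all estimated reads (vertical axes, %, starting at 0) of the 13 mitochondrially encoded members (left) and the 78 nuclear members (right) by zeitgeber time (horizontal axes, h), with each liver as a point and the mean and SD of 3 livers as lines. The mitochondrial share runs from 7.79% ± 0.361 at ZT9 to 9.64% ± 0.255 at ZT17, and the nuclear share stays between 0.964% and 1.07% on average.

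Per kilobase of transcript, the mitochondrial members had a median of 6485 and a range from 2221 (mt-Nd5) to 14761 (mt-Atp6). The nuclear members had a median of 114 and a range from 1.49 (Ndufa4l2) to 569 (Atp5b), so that the lowest mitochondrial gene was above the highest nuclear one. Within the polycistronic set, mt-Nd3 (2244), mt-Nd5 (2221) and mt-Nd6 (2474) were the lowest per kilobase, and mt-Atp6 (14761) and mt-Co1 (14188) the highest.

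Fitted peaks of the 2 genomes were set apart by hours. The median fitted peak was 17.0 h over the 75 nuclear subunits and 19.97 h over the 13 mitochondrial genes, 2.92 h later. Leaving out each liver in turn gave a lag from 2.01 h, without mouse 19 at ZT13, to 3.44 h, and the other scalings and trends gave up to 4.93 h. These are descriptions of members that share 18 libraries, and the lag was not tested.

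**Figure D5:**
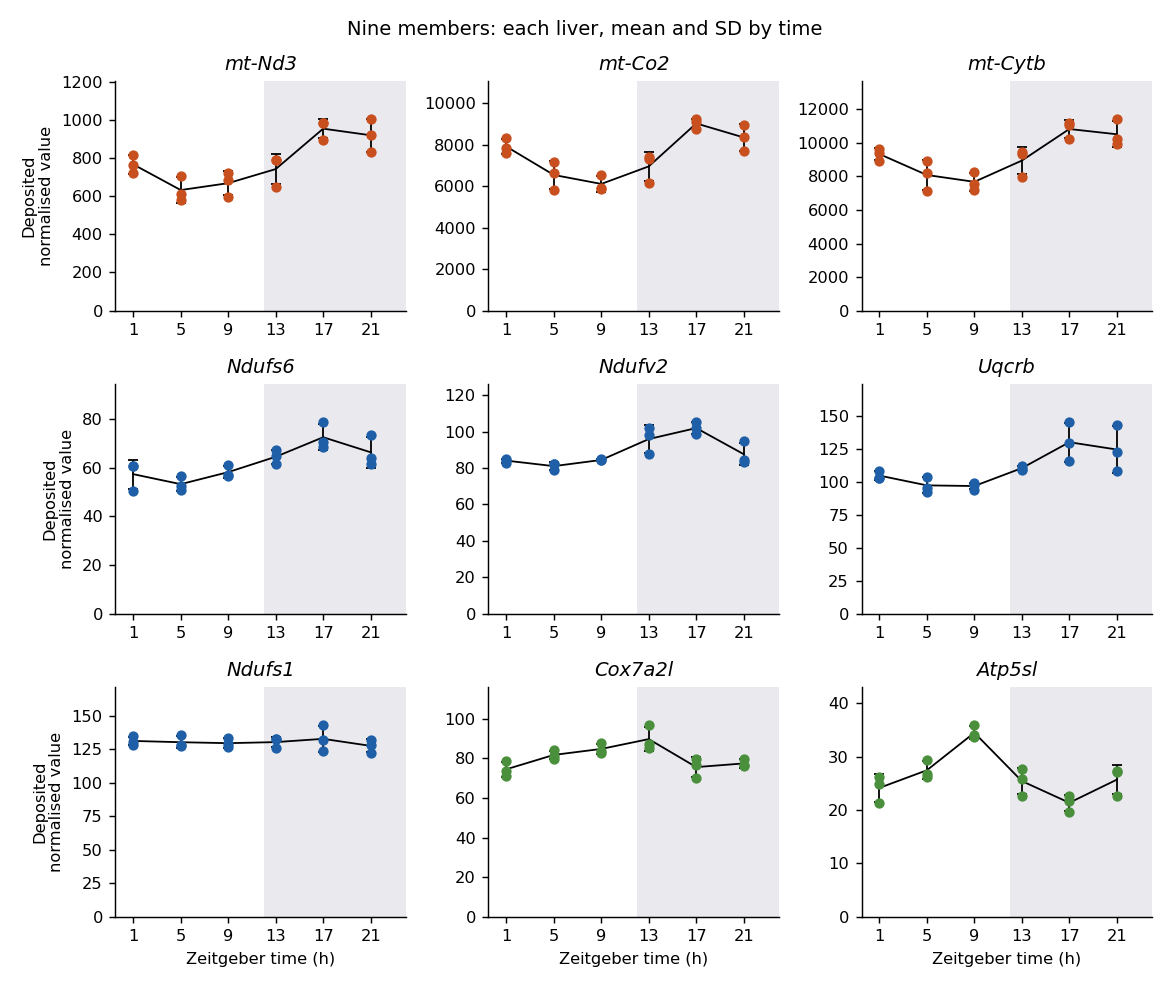
Deposited normalised value (vertical axes, starting at 0) of 9 members in each liver by zeitgeber time (horizontal axes, h), dark phase shaded, with points for livers and lines for the mean and SD of 3 livers. The top row (mt-Nd3, mt-Co2, mt-Cytb) and the middle row (Ndufs6, Ndufv2, Uqcrb) are highest at ZT17, Ndufs1 is near 130 at every time, and Cox7a2l and Atp5sl peak at ZT13 and ZT9.

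In complex I, 20 of 35 nuclear members were called. The accessory subunits, which surround the catalytic core, were called for 17 of 28, and the nuclear core subunits, which carry the flavin and iron-sulfur clusters, for 3 of 7 (Ndufs3, Ndufs7 and Ndufv2). The accessory subunit Ndufs6 measured 50.6, 60.7 and 60.9 at ZT1, 52.6, 50.8 and 56.5 at ZT5, 61.0, 56.9 and 56.8 at ZT9, 67.4, 64.7 and 61.5 at ZT13, 70.7, 78.7 and 68.4 at ZT17, and 73.6, 61.6 and 64.0 at ZT21. Every ZT17 liver was above every ZT1, ZT5, ZT9 and ZT13 liver, and the amplitude was 0.20 ± 0.0382 with a peak at 17.1 ± 0.711 h (limma adjusted p = 0.0016). With the length trend removed the adjusted p was 0.155. The accessory subunits Ndufa5 and Ndufa8 had amplitudes of 0.26 ± 0.0506 and 0.20 ± 0.0417 (limma adjusted p = 0.0026 and 0.0046), and with the length trend removed 0.0452 and 0.0543. Ndufa5 was between 29.1 and 31.5 in the 6 livers of ZT5 and ZT9 and between 38.9 and 47.6 at ZT17.

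The core subunit Ndufv2, which holds an iron-sulfur cluster beside the flavin site, was the 1 nuclear gene of complex I whose limma 24 h rhythm was called under every scaling, trend and left-out liver run here, as mt-Nd1 and mt-Nd3 were among the mitochondrial genes of the complex. It measured 85.2, 84.2 and 82.9 at ZT1, 78.7, 82.1 and 82.4 at ZT5, 84.2, 84.9 and 84.2 at ZT9, 87.7, 102 and 97.9 at ZT13, 102, 105 and 98.6 at ZT17, and 94.7, 83.5 and 84.6 at ZT21. The 9 livers of ZT1, ZT5 and ZT9 lay within 78.7 to 85.2, below all of ZT13 and ZT17, and the amplitude was 0.15 ± 0.0332 with a peak at 16.02 ± 0.827 h (limma adjusted p = 0.0053). Other core subunits gave no call. Ndufs1, the largest core subunit, had means between 128 ± 4.83 and 133 ± 9.57 at the 6 times and an amplitude of 0.00 ± 0.0302 (limma adjusted p = 0.99). Ndufv1, the flavin subunit, had an amplitude of 0.09 ± 0.0333 (limma adjusted p = 0.085). Whether the amplitudes of core and accessory subunits differ was not tested, and the median transcript was 1312 bases for the core and 674.5 bases for the accessory subunits.

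In complex II, 1 of 4 members was called. Sdhb, the iron-sulfur subunit of succinate dehydrogenase, measured 159, 153 and 157 at ZT9 and 194, 197 and 182 at ZT13, with no overlap. Its amplitude was 0.12 ± 0.0359 with a peak at 16.3 ± 1.13 h (limma adjusted p = 0.036), and the call was lost in 7 of the 18 fits without 1 liver and at plain total scaling (adjusted p = 0.19). Sdha, the flavoprotein, had means from 473 ± 20.8 to 505 ± 15.2 and an amplitude of 0.03 ± 0.0299 (limma adjusted p = 0.66). The membrane anchors Sdhc and Sdhd were not called, with adjusted p of 0.086 and 0.14 in limma.

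In complex III, 5 of 8 nuclear members were called. Uqcrb, a subunit at the ubiquinone site, measured 103, 103 and 108 at ZT1, 92.1, 95.5 and 104 at ZT5, 98.6, 97.5 and 93.7 at ZT9, 110, 109 and 112 at ZT13, 129, 145 and 115 at ZT17, and 143, 108 and 122 at ZT21. Every ZT17 liver was above every liver of ZT1 to ZT13, and the amplitude was 0.22 ± 0.0407 with a peak at 18.4 ± 0.699 h (limma adjusted p = 0.0014, the smallest of the nuclear members). The limma 24 h call held under every setting run. Uqcrb shares 43.4% of its 50-base windows with other annotated genes, so that its reads may be divided with a copy. The small subunits Uqcr10 and Uqcrq had amplitudes of 0.22 ± 0.0547 and 0.18 ± 0.0438 (limma adjusted p = 0.012 and 0.013), and with the length trend removed 0.355 and 0.43. The Rieske protein Uqcrfs1 and the core protein Uqcrc1 were not called, with amplitudes of 0.08 ± 0.0309 and 0.10 ± 0.0356 (limma adjusted p = 0.13 and 0.1).

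In complex IV, 3 of 14 nuclear members were called, of which Cox7a2l is a factor. Ndufa4, named after complex I and now counted as a subunit of complex IV, measured 199, 195 and 212 at ZT5 and 265, 279 and 230 at ZT17, with no overlap. Its amplitude was 0.17 ± 0.0355 with a peak at 18.05 ± 0.805 h (limma adjusted p = 0.0044). Cox7b had an amplitude of 0.15 ± 0.0377 with a peak at 18.1 ± 0.973 h (limma adjusted p = 0.016). With the length trend removed the adjusted p of these 2 genes was 0.416 and 0.167. Cox4i1 and Cox5a, the nuclear subunits that bind the catalytic core, had amplitudes of 0.09 ± 0.0365 and 0.11 ± 0.0392 (limma adjusted p = 0.13 and 0.081).

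Several complex IV subunits exist as tissue isoforms. The isoforms found in liver and most tissues were abundant, with a mean of 268 for Cox4i1, 190 for Cox6a1, 129 for Cox6b1, 83.0 for Cox7a2 and 115 for Cox8a. None of them was called, with adjusted p in limma of 0.13, 0.068, 0.052, 0.051 and 0.11. Cox7a1, the heart and muscle isoform, had a mean of 1.08 and was highest in mouse 25 at ZT17, at 2.44. The striated muscle markers Ckm, Acta1 and Myh1 summed to 0.103 in that liver and reached 3.79 in mouse 2 at ZT1 and 3.56 in mouse 26 at ZT17, where Cox7a1 was 1.14 and 1.69. Ndufa4l2, a relative of Ndufa4 induced by low oxygen in other cells, had a mean of 1.39 and an amplitude of 0.12 ± 0.0842 (limma adjusted p = 0.48). Cox4i2, Cox6a2, Cox6b2 and Cox8b were not analysed here.

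In complex V, 10 of 17 nuclear members were called, and 2 of these were the factors Atp5s and Atp5sl. The catalytic beta subunit Atp5b had the highest mean value of the nuclear members (1090) and was not called, at 1032 ± 32.7 at ZT1 and 1149 ± 26.4 at ZT17 (amplitude 0.07 ± 0.0314, limma adjusted p = 0.19). The membrane subunit Atp5j2 and the stalk subunit Atp5h had amplitudes of 0.20 ± 0.0436 and 0.15 ± 0.037 (limma adjusted p = 0.006 and 0.012), and with the length trend removed 0.105 and 0.305. Atp5h was 134, 123 and 118 at ZT9 and 155, 170 and 161 at ZT17. The 3 genes of subunit c, the ring that turns in the membrane, encode the same mature protein. Per kilobase Atp5g3 had 440, Atp5g2 133 and Atp5g1 44.0. The lengths used, medians over annotated coding transcripts, were 718, 586 and 2675 bases. This order and the length trend removal both depend on those lengths. Atp5g1 was called with an amplitude of 0.16 ± 0.0421 (limma adjusted p = 0.016, and 0.0145 with the length trend removed), Atp5g3 with 0.14 ± 0.0398 (limma adjusted p = 0.031, and 0.344), and Atp5g2 was not (limma adjusted p = 0.13). Atp5g2 shares 87.4% of its 50-base windows with other genes, and whether the 3 genes differ in amplitude was not tested.

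Of the 3 factors, Atp5s and Atp5sl were lowest at ZT17, and Cox7a2l had its highest mean at ZT13. Atp5s, the coupling factor B that is also called Dmac2l, measured 4.58, 4.61 and 4.18 at ZT5 and 2.45, 2.46 and 2.27 at ZT17. The amplitude was 0.28 ± 0.062 with a peak at 4.59 ± 0.832 h (limma adjusted p = 0.0055). Atp5sl, also called Dmac2, an assembly factor of complex I, fell outside the rule for named genes and was chosen after its values were seen. It measured 33.6, 35.8 and 33.998 at ZT9, above all 15 other livers, and 21.6, 22.7 and 19.7 at ZT17 (amplitude 0.22 ± 0.0587, peak 7.61 ± 1.00 h, limma adjusted p = 0.019). The limma adjusted p of its 12 h term was 0.11, and it was 0.0457 with the length trend removed and 0.0322 with length and GC content removed. Cox7a2l, which joins complexes III and IV in supercomplexes, measured 87.2, 96.5 and 85.2 at ZT13 and 73.5, 78.5 and 71.3 at ZT1 (amplitude 0.11 ± 0.0348, peak 10.5 ± 1.16 h, limma adjusted p = 0.042). The limma 24 h calls of Atp5s and Atp5sl held under every setting, and that of Cox7a2l was lost in 14 of 18 fits without 1 liver. JTK called Atp5s (JTK q = 0.028) but not Atp5sl (JTK q = 0.16) or Cox7a2l (JTK q = 0.081).

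Promoters of 66 of the 78 nuclear members were matched in RefSeq (GRCm38.p6), 63 by symbol and 3 by synonym. The 250 bases before the start site were searched on both strands for motifs written in letters. The letters GCGC, any 2 bases and GCGC again, bound by the factor NRF1, were in 13 of 66 members (19.7%) and in 6.94% of 17492 coding promoters. CCGGAAG, bound by ETS factors, was in 11 (16.7%, beside 9.13%), AAGGTCA, bound by the estrogen-related receptors, in 5 (7.58%, beside 3.58%), and the E-box CACGTG of the clock factors in 7 (10.6%, beside 6.64%). The D-box TTATGTAA was in 1 member and the YY1 letters AAGATGGC in 0, beside 0.846% and 1.51%. The NRF1 letters were in 7 of 35 members called for 24 h and 6 of 31 others, and the E-box in 4 and 3. A match describes letters in a window and not a site.

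Ndufv2 is the nuclear gene of complex I whose limma 24 h call held under every setting. Uqcr10 is a called subunit of complex III without any of these motifs, and Atp5sl is a factor in the opposite phase. Their windows are printed 5′ to 3′ on the strand of the gene, with motif letters in capitals. They are chr17:66101560-66101809 on the minus strand for Ndufv2, with overlapping NRF1 letters, chr11:4704345-4704594 on the minus strand for Uqcr10, and chr7:25619164-25619413 on the plus strand for Atp5sl, with an E-box. None of the 3 windows overlaps an annotated exon.
Ndufv2: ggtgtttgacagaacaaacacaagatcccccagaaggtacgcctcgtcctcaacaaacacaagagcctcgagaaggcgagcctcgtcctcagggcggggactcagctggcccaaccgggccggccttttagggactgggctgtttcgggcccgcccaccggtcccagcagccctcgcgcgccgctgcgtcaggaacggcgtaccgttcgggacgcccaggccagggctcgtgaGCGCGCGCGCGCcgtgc
Uqcr10: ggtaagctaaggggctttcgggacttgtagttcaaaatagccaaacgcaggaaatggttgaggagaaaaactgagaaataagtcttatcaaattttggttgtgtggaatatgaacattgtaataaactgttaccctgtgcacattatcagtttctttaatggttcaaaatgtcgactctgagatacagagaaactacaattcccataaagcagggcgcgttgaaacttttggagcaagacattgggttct
Atp5sl: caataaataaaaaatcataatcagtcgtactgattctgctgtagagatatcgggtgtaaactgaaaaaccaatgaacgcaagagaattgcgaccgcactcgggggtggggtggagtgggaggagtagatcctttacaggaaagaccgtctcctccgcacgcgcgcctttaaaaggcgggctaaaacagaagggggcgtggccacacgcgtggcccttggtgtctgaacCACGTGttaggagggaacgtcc

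The other genes of the pathway were read from 5 lists chosen with earlier results of these data known. Each list had called genes with peaks inside and outside 13 h to 22 h. Among the assembly factors, 12 of the 16 called genes peaked inside it. Over all genes, 35.3% were called, and 13.4% were called with a peak in that window. Electron carriers and dehydrogenases that feed the chain were called for 16 of 24 genes, 7 of them with a peak between 13 h and 22 h. Among these 7 were Cyc1 of complex III and Ndufab1 of complex I, which are themselves subunits that the symbol rule did not match. Their peaks were 15.3 h and 18.1 h (limma adjusted p = 0.018 and 0.023). Adck3, a kinase-like protein needed for coenzyme Q, had an amplitude of 0.94 ± 0.0851 and fell from 521 ± 61.3 at ZT1 to 126 ± 8.24 at ZT9 (limma adjusted p = 1.43e-06). Coq10b, which binds coenzyme Q, was in the opposite phase, at 12.7 ± 1.21 at ZT1 and 49.9 ± 1.32 at ZT9 (amplitude 0.89 ± 0.0863, limma adjusted p = 2.69e-06). Pdss2, which makes the coenzyme Q tail, was 12.3 ± 0.189 at ZT1 and 7.78 ± 0.386 at ZT13 (limma adjusted p = 2.00e-05).

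Assembly factors were called for 16 of 52 genes, 12 of them with a peak between 13 h and 22 h. Sco2, a copper chaperone of complex IV, was 73.2 ± 6.96 at ZT1 and 19.1 ± 5.21 at ZT9 (amplitude 1.09 ± 0.0748, limma adjusted p = 7.65e-08), but 91.8% of its exon bases are shared with Tymp and Ncaph2, so that its reads are uncertain. Ndufaf4, an assembly factor of complex I, was 28.6 ± 3.20 at ZT5 and 47.1 ± 1.28 at ZT13 (amplitude 0.36 ± 0.0391, limma adjusted p = 9.27e-06). Higd1a, a small protein that associates with complex IV, was 29.9 ± 1.79 at ZT5 and 47.1 ± 2.17 at ZT17 (limma adjusted p = 2.94e-05).

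Genes for transcription, replication and RNA of mtDNA were called for 13 of 33 genes, 6 of them with a peak between 13 h and 22 h. Peo1, the helicase Twinkle of the mtDNA replication fork, was 18.1 ± 2.15 at ZT9 and 29.2 ± 2.65 at ZT17 (amplitude 0.31 ± 0.047, peak 17.5 ± 0.577 h, limma adjusted p = 0.000274). Mterf2, a member of the termination factor family, was 2.80 ± 0.302 at ZT5 and 0.903 ± 0.618 at ZT13 (limma adjusted p = 0.0036), and Top1mt, the mitochondrial topoisomerase, was 20.7 ± 1.54 at ZT21 and 14.98 ± 1.12 at ZT9 (limma adjusted p = 0.00848). Tfam, the packaging and transcription factor of mtDNA, had an amplitude of 0.08 ± 0.0398 (limma adjusted p = 0.231), and was called with the length trend removed (adjusted p = 0.0205).

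Nuclear regulators of the pathway were called for 12 of 24 genes, 3 of them with a peak between 13 h and 22 h. Ppard was 5.91 ± 0.998 at ZT5 and 35.4 ± 5.61 at ZT1, Ppara was 121 ± 6.32 at ZT9 and 64.9 ± 5.48 at ZT1, and Esrra was 20.3 ± 0.754 at ZT1 and 35.5 ± 1.03 at ZT17. These 3 nuclear receptors had limma adjusted p of 2.45e-05, 0.000604 and 6.73e-05. The coactivator Ppargc1a was 11.2 ± 0.783 at ZT5 and 5.82 ± 0.598 at ZT1 (amplitude 0.34 ± 0.0987, peak 6.78 ± 1.098 h, limma adjusted p = 0.0317), a call that held in 12 of 18 fits without 1 liver and not with the length trend removed. Nrf1 had an amplitude of 0.08 ± 0.0548 (limma adjusted p = 0.462).

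The TCA cycle, which makes the NADH and succinate used by complexes I and II, was called for 9 of 19 genes, 3 of them with a peak between 13 h and 22 h. Mdh2, the malate dehydrogenase, was 131 ± 7.09 at ZT5 and 169 ± 20.7 at ZT13 (limma adjusted p = 0.00374). Dlat, a subunit of the pyruvate dehydrogenase complex that feeds the cycle, was 65.9 ± 1.29 at ZT5 and 44.5 ± 1.76 at ZT17 (limma adjusted p = 0.00245). With the length trend removed the 5 lists had 14, 15, 11, 10 and 8 calls in the order given here.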

How the data were processed

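The files hold 1 table of 14451 genes in 18 livers. Per the labels and the methods of the study, the authors demultiplexed reads with CASAVA 1.8.2, trimmed them with cutadapt, quantified them with RSEM 1.2.20 on GRCm38 transcripts (versions from the submitters' processing notes) and normalised the estimated counts with limma. The deposited unit is a linear signal: the values fit estimated reads with 0.5 added, per 1000000 of a library size that the authors adjusted, and they sum to between 941088 and 1077230 per liver. Dividing each column by 2 times its lowest value and subtracting 0.5 gave the estimated reads, with a median depth of 12078875. Between 39.1% and 47.9% of values per liver were whole reads within 0.001 reads, so no count test was run. The 2 genes at the floor in every liver were left out.

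With log2(value + 1), limma 3.58.1 in R 4.3.3 fitted the 24 h cosine, the 24 h and 12 h pairs, and the 6 time means. JTK was written again from its description, with periods of 20, 24 and 28 h. These tools were tested on simulated data of 14449 genes with independent normal noise. There the 24 h cosine recovered 132 of 200 genes given an amplitude of 0.2 or 0.4 and called 4 flat ones. The nuclear members had a median amplitude of 0.14, and short transcripts moved together within livers. The simulation therefore gives no rate of recovered or false calls for the members. Python 3.11.15, numpy 2.4.6, scipy 1.17.1 and pandas 2.3.3 were used. Lengths, positions and shared 50-base windows came from GENCODE M21, where 14405 genes had a length, and the length trend was fitted in each liver on 7375 genes. A length is the median over the coding transcripts of a gene, or over all its transcripts if none is coding. Alternatives covered the pseudocount, low value filters, limma options, voom weights, scaling, JTK settings, CircaN's cosine curve alone, and leaving out each liver.

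The symbol rule for the members used no expression value, but the rule and the gene lists were chosen with earlier results of these data known. Named were all mitochondrial members, per complex the 3 nuclear members with the smallest 24 h p among those called and the smallest called 12 h p, a fixed set of catalytic subunits and isoforms, the 3 smallest p of each pathway list, and Ppargc1a, Tfam, Nrf1 and Esrra. Some genes that this rule names are not reported here. Separate mice were the replicates in every test. The p of the 24 h cosine sets the fitted rhythm against the scatter of all livers around the fitted curve. That scatter includes any departure of the time means from a cosine, and not only the spread between mice of 1 group. The p of JTK comes from the ranks of all livers.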

Additional observations from a re-analysis of the deposited data

How the results depend on the processing

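Of 620 fits of named genes under other settings, 45 lost and 20 gained a call, and of 1116 without 1 liver 32 lost and 11 gained one. The fitted peak moved by over 6 h in 20 and 1 of these fits, 0 of them called both before and after. Among them were Cox4i1, Cox5a, Cox6a1, Cox6b1, Atp5b, Sdha and mt-Co1. The 24 h cosine, called for 50 members, was called for 27 (16 nuclear) with plain totals, 32 (21 nuclear) with totals without mtDNA, 18 (9 nuclear) with the length trend removed and 17 (7 nuclear) with length and GC content removed, and for 4 mitochondrial genes after quantile normalization. The F test, 23 members, called 39 (28 nuclear) with limma's trend and robust option, 37 (26 nuclear) with voom weights, 10 (6 nuclear, 4 mitochondrial) with plain totals, 11 (1 mitochondrial) after quantile normalization, 12 (6 nuclear) with totals without mtDNA, 8 (4 nuclear, 4 mitochondrial) with length removed and 12 (4 nuclear) with length and GC removed. The 12 h term called 1 nuclear member, Atp5sl, under each of the 2 trend removals. JTK, 21 members, called 12 (0 mitochondrial) after quantile normalization, 38 (28 nuclear, 10 mitochondrial) with equal cosines counted once, 35 (27 nuclear) with the 24 h period alone, 10 (5 nuclear) and 13 (5 nuclear) with the trends removed, 7 nuclear with plain totals and 9 nuclear with totals without mtDNA, and CircaN's cosine curve alone called 8 (4 nuclear). The trend removals were chosen after the data were seen, and the cause of these shifts was not tested.

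Without 1 liver the 24 h cosine called 36 to 55 members, 25 to 44 nuclear and 11 to 11 mitochondrial, and only mouse 26 (ZT17) moved the nuclear count by over 1.5 times. The F test called 10 to 25, 5 to 20 nuclear and 4 to 10 mitochondrial. Its total fell by over 1.5 times without mouse 2 of ZT1 (15), mouse 7 (13) or 8 (12) of ZT5, mouse 14 (14) or 15 (13) of ZT9, or mouse 25 (11), 26 (10) or 27 (13) of ZT17. JTK called 8 to 21, 5 to 16 nuclear and 2 to 9 mitochondrial. Its total fell as far without mouse 7 (10), 8 (8) or 9 (12) of ZT5, mouse 15 (13) of ZT9, mouse 20 or 21 of ZT13 (12 each), or mouse 25 (11), 26 (12) or 27 (10) of ZT17. The 12 h term stayed at 0, and the rise in mitochondrial share at 1.71 to 2.06 points. No paired analysis was possible because each liver came from its own mouse and the labels give the times no shared replicate numbers. Depth limits low genes such as Cox7a1, Ndufa4l2 and Atp5s most.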
